A study of Mus musculus with 32 samples.

Results

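The 8 libraries described here are the day 7 samples of an RNA sequencing series of 32 libraries in 3T3-L1 cells, mouse preadipocytes grown as a line, which store fat after hormone treatment. The series sampled 3T3-L1 cells at days 0, 3, 7 and 11 of differentiation and asked how knockdown of Zbtb9 alters expression at each time. The day 7 members were taken by their sample titles and column names. They comprise 4 libraries from cells carrying 1 of 2 short hairpin RNAs (shRNAs) against Zbtb9, with 2 biological replicates for each shRNA, and 4 libraries from cells carrying a scrambled shRNA, the control. The labels give all 8 samples the same inducers. Adipogenic differentiation was started 2 days after confluence (day 0) with insulin at 167 nM, 3-isobutyl-1-methylxanthine at 0.5 mM and dexamethasone at 1 µM, in medium with 10% fetal bovine serum. From day 3 the medium held 167 nM insulin as the one remaining addition, and it was replaced at day 7 by medium without added hormone. The labels' protocol names the harvest at day 11 alone, and does not say whether the day 7 cells were collected before or after that change, whether each shRNA line was 1 clone or a pool, or how the shRNAs were delivered.

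Adipogenesis in 3T3-L1 cells proceeds through early transcription factors (C/EBPβ and C/EBPδ), which induce PPARγ and C/EBPα, which in turn activate genes for fatty acid uptake, triglyceride storage, insulin-responsive glucose uptake and hormone secretion. Confluent preadipocytes first re-enter the cell cycle for a few rounds and then leave it as they fill with lipid. Zbtb9 encodes a protein with a BTB domain, which mediates protein-protein contacts, and zinc fingers, which bind nucleic acid. The comparison of knockdown with control at day 7 addresses which genes differ when cells are partway through this programme.

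Total depth at day 7 was 22280363 to 27179451 reads in genes in control libraries and 23171539 to 27158078 in knockdown libraries. Expression is given on 2 scales, and rises and falls of single genes are log2 differences, with positive values higher in knockdown. Log2 values are those deposited, in which genes with few reads are drawn towards their mean, so differences of such genes are understated. Normalised reads are reads per library rebuilt from those values and divided by the library's scaling factor. Where 4 knockdown values are listed, the order is shRNA 1 replicates 1 and 2, then shRNA 2 replicates 1 and 2, and control values are in the order of replicates 1 to 4. Markers of the labelled cell type were present: fibroblast and preadipocyte markers summed to 419138 to 458417 normalised reads in control and 333699 to 372873 in knockdown libraries, and Adipoq, Fabp4 and Plin1, described below, were read in all 8 libraries. Markers of other cell types were unevenly read. Ptprc (leukocytes) reached at most 2 reads in any day 7 library, Itgam (myeloid cells) 1, Kdr (endothelium) 2, and Epcam and Cdh1 (epithelium) 1 and 2. Cd14, a monocyte marker also found on other cells, reached 452 reads, and the leukocyte and epithelial markers that were read are given with the results they accompany.

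The targeted gene was examined first. Zbtb9 lies at chromosome 17, 26973167 to 27008376, plus strand (GENCODE M21, GRCm38, as for all genes placed here). It had 6.09, 9.28, 8.39 and 4.87 normalised reads in the knockdown libraries and 14.8, 17.2, 22.3 and 12.7 in the controls. All 4 knockdown libraries lay below all 4 controls, and the knockdown mean was 42.7% of the control mean. On the deposited scale the difference was -0.35 (two-sided exact permutation p = 0.0286, n = 4 against 4, the smallest p this design allows). The limma fit over all genes gave an SE of 0.12 and an adjusted p of 0.0288, and lost the call, with adjusted p from 0.0556 to 0.0789, when control replicate 2 or 3, shRNA 1 replicate 1 or shRNA 2 replicate 2 was left out. It was also lost with a pseudocount of 10 (-0.18, adjusted p = 0.0507). On normalised reads, the exact permutation p was 0.0571 without shRNA 1 replicate 1 or shRNA 2 replicate 2. Both shRNAs lay below control, with a log2 difference of -0.32 for shRNA 1 and -0.37 for shRNA 2. The gene is thinly covered, and 84.4% of its 3482 annotated exon bases are also exon of Ggnbp1 or AC144621.2, so the residual level is uncertain. It entered the fit through the 4 control libraries, since only 1 knockdown library reached the minimum of 10.

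Knockdown and control differed over much of the transcriptome. Of 13299 genes tested with limma, 6328 were called at an adjusted p under 0.05 (47.6%), 3317 of them higher (24.9%) and 3011 lower (22.6%) in knockdown. Most differences were small. The median absolute log2 difference of called genes was 0.38, and 416 genes (3.13%) were called with a log2 difference of at least 1, which is a doubling or more, 271 of them higher (2.04%) and 145 lower (1.09%). The groups did not overlap in 44.2% of the genes tested, and 41.3% were both called and not overlapping. With the libraries rescaled to equal totals, 44.7% of the calls were higher, against 52.4% with the deposited scaling, so the balance between rises and falls depends on scaling, while the median of all genes moved by -0.04.

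**Figure D1:**
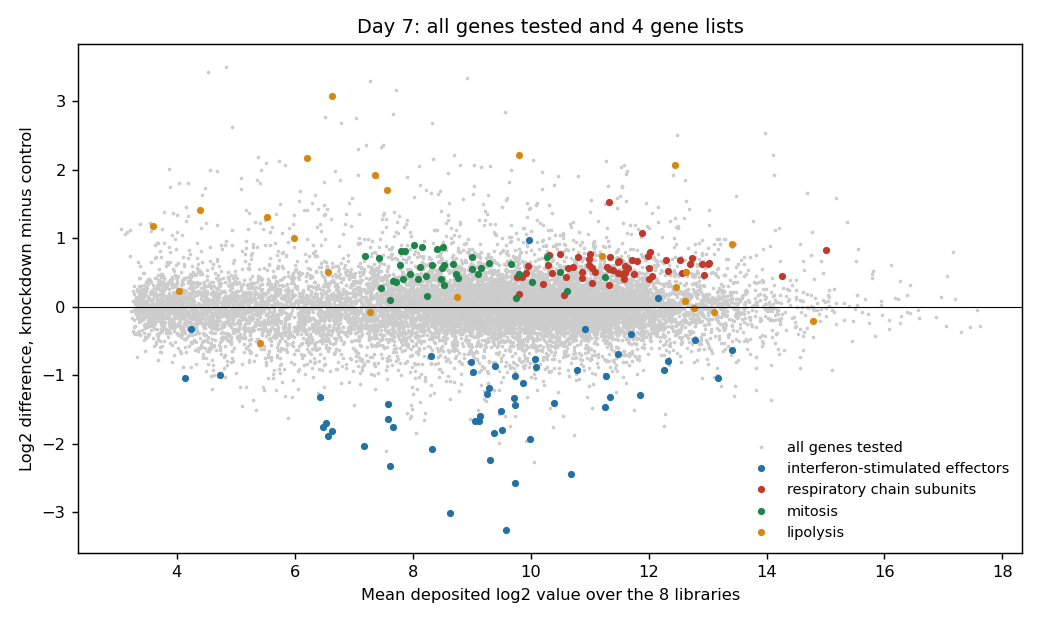
Each grey point is 1 of 13299 genes tested at day 7, with its mean deposited log2 value over the 8 libraries on the x axis and the log2 difference between knockdown and control on the y axis. Coloured points are members of 4 gene lists: interferon-stimulated effectors lie mostly below 0 (median -1.32), and respiratory chain subunits (median 0.57), mitosis genes (median 0.53) and lipolysis genes (median 0.74) mostly above it.

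Each shRNA was also set against control by itself. The means of both shRNAs lay on one side of the control mean for all 6328 called genes, which a call over both shRNAs nearly requires. They did so for 80.9% of all genes tested, a share that the common controls by themselves raise. Against control, shRNA 1 had 6921 called genes (52.0%) and shRNA 2 had 6121 (46.0%). Of the genes tested, 4766 were called with each shRNA in the same direction and 75 were called with each in opposite directions. With libraries rescaled to equal totals, 42.5% of the shRNA 1 calls were higher, against 53.2% with the deposited scaling. As a measure of distance between libraries, the root mean square log2 difference over genes was 0.172 to 0.200 between control libraries, 0.170 between the shRNA 1 replicates, 0.178 between the shRNA 2 replicates, 0.244 to 0.269 between the shRNAs and 0.396 to 0.505 between knockdown and control. The controls serve both shRNA comparisons, so these are not independent of each other.

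Among the 12 largest rises were genes of mature fat cells. Slc2a4 encodes GLUT4, the glucose transporter that insulin brings to the cell surface, and lies at chromosome 11, 69942539 to 69948188, minus strand. It had 2553, 2472, 2218 and 2753 normalised reads in knockdown and 309, 314, 290 and 334 in control libraries. No library of either arm came near the other, and the log2 difference was 2.84 ± 0.07 (SE, adjusted p = 8.78e-13). Hcar2, the niacin and hydroxybutyrate receptor of adipocytes (chromosome 5, 123863570 to 123865499, minus strand), had 406, 408, 362 and 455 normalised reads in knockdown and 26.6, 28.4, 35.9 and 33.5 in control libraries, again with no overlap, and rose by 3.07 ± 0.11 (SE, adjusted p = 4.91e-11). Mrap encodes the accessory protein that carries melanocortin receptors to the membrane. It had 1215, 1191, 959 and 1116 normalised reads against 170, 151, 107 and 164, a rise of 2.69 ± 0.12 (SE, adjusted p = 4.66e-10). With shRNA 1 and shRNA 2 taken apart, the rise was 2.85 and 2.83 for Slc2a4, 3.07 and 3.07 for Hcar2, and 2.79 and 2.59 for Mrap. In these bulk libraries, a change in the number of cells of a type and a change in RNA per cell cannot be told apart.

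Several of the largest rises were of genes less often linked to fat cells. Adgrf5, an adhesion G protein-coupled receptor (chromosome 17, 43360451 to 43459557, plus strand), had 1869, 2128, 1583 and 2132 normalised reads in knockdown and 183, 147, 151 and 159 in control libraries, and its log2 difference was 3.34 ± 0.10 (SE, adjusted p = 2.97e-12). Ghrh, which encodes growth hormone-releasing hormone, best known from the hypothalamus (chromosome 2, 157329497 to 157347506, minus strand), had 776, 782, 867 and 1018 against 84.6, 66.9, 94.2 and 65.8. Every knockdown library held more than every control library for both genes, and Ghrh rose by 3.17 ± 0.12 (SE, adjusted p = 4.91e-11). Alpl, the tissue-nonspecific alkaline phosphatase, had 600, 926, 478 and 713 against 38.4, 53.8, 36.9 and 53.1 and rose by 3.30 ± 0.16 (SE, adjusted p = 2.66e-09). Selenbp1, a selenium-binding protein that oxidises methanethiol, had 680, 615, 693 and 890 against 101, 92.3, 60.2 and 79.7, a rise of 2.81 ± 0.14 (SE, adjusted p = 7.90e-10). Reads of Selenbp1 may be shared with its near-identical copy Selenbp2. Rnf144b, a ubiquitin ligase, rose by 2.68 ± 0.13 (SE, adjusted p = 6.94e-10), Pdzk1, a scaffold for membrane transporters, by 2.75 ± 0.26 (SE, adjusted p = 1.27e-05), and Aldh1l1, a folate enzyme, by 2.77 ± 0.23 (SE, adjusted p = 1.48e-06). In each of these 3 genes the lowest knockdown library was at least 280 normalised reads and the highest control library at most 74.8.

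The 2 largest rises by fitted difference were uneven between the shRNAs. Krt8, a keratin of simple epithelia, had 620, 604, 46.2 and 100 normalised reads in knockdown and 17.7, 1.01, 5.83 and 3.46 in control libraries. B3gnt6, a glycosyltransferase that builds core 3 mucin-type glycans, had 340, 702, 54.5 and 82.8 against 5.90, 6.09, 5.83 and 2.31. Both genes were high in the shRNA 1 libraries, intermediate in the shRNA 2 libraries and nearly silent in control. Krt8 rose by 3.50 ± 0.81 (SE, adjusted p = 0.0119) and B3gnt6 by 3.42 ± 0.70 (SE, adjusted p = 0.00688), with SEs several times those of Slc2a4 or Hcar2. Both genes passed the minimum through the knockdown libraries, as 1 control library of Krt8 and none of B3gnt6 reached it, so a difference was largely built into their being tested. B3gnt6 could be fitted in 4 of the 8 fits without 1 library, since it fell under the minimum whenever a knockdown library was left out.

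**Figure D2:**
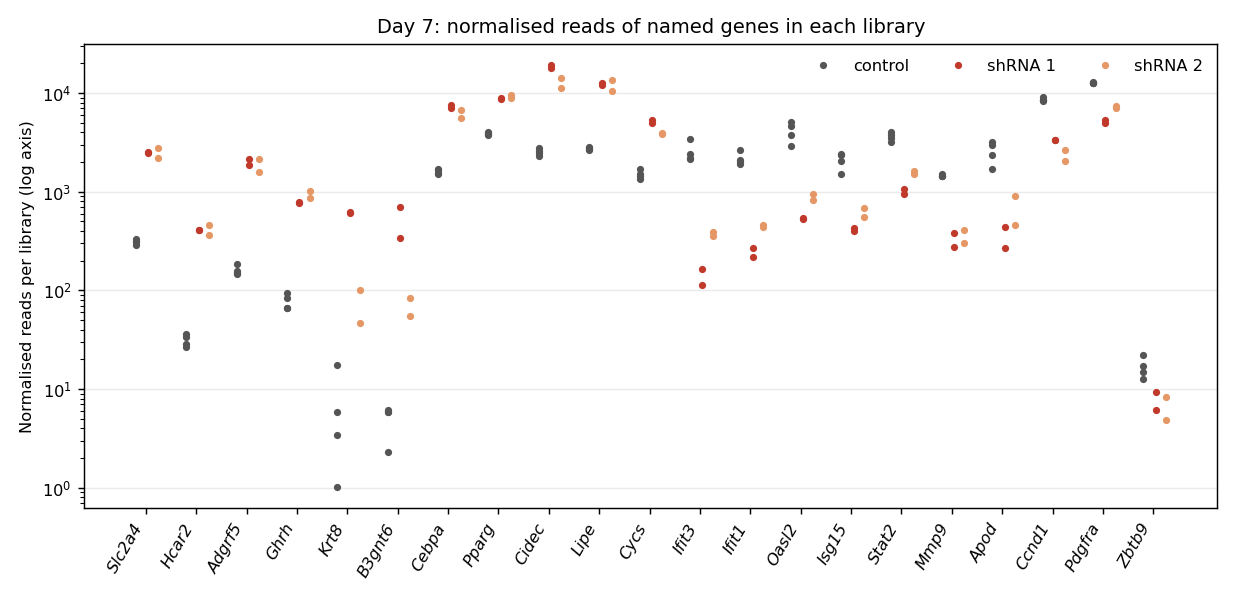
Normalised reads (log axis) of 21 named genes in each of the 8 day 7 libraries, with grey points for the 4 controls, red for the 2 shRNA 1 libraries and orange for the 2 shRNA 2 libraries. The arms do not overlap in any of the genes shown, Slc2a4 lies between 2218 and 2753 in knockdown and between 290 and 334 in control libraries, and Krt8 and B3gnt6 show a gap between the shRNAs.

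The largest falls were dominated by genes induced by interferon. Ifit3, Ifit3b and Ifit1 encode proteins that bind foreign RNA and block its translation. Ifit3 (chromosome 19, 34583531 to 34588731, plus strand) had 165, 114, 390 and 357 normalised reads in knockdown and 2396, 2182, 3402 and 2141 in control libraries, and its log2 difference was -3.26 ± 0.40 (SE, adjusted p = 0.000611). Its near-identical neighbour Ifit3b, with which reads may be shared, had 98.4, 49.9, 220 and 196 against 1224, 1027, 1506 and 1053, a difference of -3.01 ± 0.40 (SE, adjusted p = 0.000869). Ifit1 (chromosome 19, 34640871 to 34650009, plus strand) had 267, 216, 455 and 441 against 2101, 1921, 2637 and 2014 and a difference of -2.57 ± 0.24 (SE, adjusted p = 8.38e-05). In all 3 genes the shRNA 1 libraries were lowest, the shRNA 2 libraries next and the controls highest. Oasl2, an oligoadenylate synthetase-like protein, had 547, 529, 959 and 830 against 4619, 2938, 5053 and 3798, with a difference of -2.44 ± 0.25 (SE, adjusted p = 0.000202). Mx1, a GTPase that blocks influenza and related viruses, had 68.0, 58.0, 113 and 77.9 against 439, 488, 654 and 410, with a difference of -2.33 ± 0.16 (SE, adjusted p = 1.22e-07). Ifi44 (-2.23), Ifi27l2a (-2.11), Mx2 (-2.08) and Cmpk2, a mitochondrial nucleotide kinase (-2.04), completed the interferon-induced genes among the 12.

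Outside the interferon response, 3 genes were among the 12 largest falls. Mmp9, a gelatinase that degrades basement membrane collagen, had 382, 275, 407 and 305 normalised reads in knockdown and 1497, 1440, 1435 and 1450 in control libraries. The controls lay within a narrow band and all knockdown libraries far below it, and the difference was -1.99 ± 0.10 (SE, adjusted p = 8.67e-10). Apod, the lipid carrier apolipoprotein D, had 439, 269, 910 and 461 against 3155, 1706, 2992 and 2353, with a difference of -2.27 ± 0.38 (SE, adjusted p = 0.00265). Pi15, a secreted peptidase inhibitor, had 263, 218, 1210 and 756 against 2368, 2342, 1536 and 1956, with a difference of -1.97 ± 0.56 (SE, adjusted p = 0.0277). The shRNA 2 libraries of Pi15 lay between the shRNA 1 libraries and the controls, and its call was lost in 5 of the 8 fits that left out 1 library (without control replicate 1, 2 or 4 or either shRNA 1 replicate, adjusted p from 0.0570 to 0.0680).

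Because the interferon-induced genes fell most, the sequence before their transcription starts was examined. The interferon-stimulated response element is a DNA site of interferon regulatory factors, and its core was searched as GAAA, any 2 bases and GAAA again, on both strands, overlapping matches included, in windows of 250 bases before to 50 bases after each RefSeq start (GRCm38.p6). The 5 stretches below, of 61 bases each, are shown because they belong to effectors that fell and hold the core before the start. They read 5′ to 3′ along the gene's strand, and capitals mark the core, which reads TTTC, any 2 bases and TTTC where it lies on the opposite strand. They lie at chr4:156200849-156200909 for Isg15, chr19:34640779-34640839 for Ifit1, chr19:34583382-34583442 for Ifit3, chr5:120907526-120907586 for Oas1a and chr11:58199495-58199555 for Igtp.
Isg15: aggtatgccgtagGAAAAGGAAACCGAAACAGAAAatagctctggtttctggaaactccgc
Ifit1: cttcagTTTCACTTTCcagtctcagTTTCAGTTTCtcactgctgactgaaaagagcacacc
Ifit3: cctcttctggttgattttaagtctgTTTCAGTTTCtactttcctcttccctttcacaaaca
Oas1a: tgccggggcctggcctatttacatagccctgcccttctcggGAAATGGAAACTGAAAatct
Igtp: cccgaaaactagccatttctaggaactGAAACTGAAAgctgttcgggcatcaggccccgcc
The Isg15 stretch holds 3 overlapping cores, Ifit1 holds 2 separate ones, Oas1a holds 2 that overlap, and Ifit3 and Igtp hold 1 each. The Ifit3 window holds another core at -156 from the start, upstream of the stretch printed. The stretch printed for Ifit3 was letter for letter the same as that of Ifit3b. Of the 54 interferon-stimulated effectors tested, 37 had a RefSeq window and 21 of these (56.8%) held the core, against 3.99% of all 27025 genes in the table and 3.69% of the 9971 tested genes that matched. The share was 65.4% for the 26 matched effectors called lower by at least 1, 20.7% for interferon sensing and signalling genes, 27.8% for class I presentation genes, 4.26% for respiratory chain genes and 2.94% for mitosis genes. The effectors were listed as interferon-stimulated genes, so an excess of this core over all genes was largely built into the list. The 26 were picked by their fall in these same data, and a link between core and fall was not tested. A match describes letters only, and its use as a site was not measured.

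As a group, interferon-stimulated effectors fell. Of 54 effectors tested, 51 were called lower and 1 higher, against 22.6% and 24.9% of all genes tested. Of the 54, 36 were called lower by at least 1, against 1.09% of all genes tested. Their median log2 difference was -1.32, against 0.01 for all genes tested. The list was chosen with earlier results of these data known, and many members are also among the largest falls. The lone rise was Isg20, an exonuclease (0.97), and Ifi27 (0.12) and Ifitm1 (-0.32) were not called; these 3 are named because they are the exceptions. Isg15, a ubiquitin-like protein attached to other proteins, had 398, 433, 679 and 550 normalised reads in knockdown and 2342, 1523, 2415 and 2037 in control libraries, with no overlap, and fell by 1.92. The mean log2 value of the 54 members was 8.62, 8.47, 8.96 and 8.78 in the knockdown libraries and 10.12, 9.79, 10.22 and 9.99 in the controls. Control replicate 2 was the lowest control and lay above every knockdown library.

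Genes that sense and relay interferon signals were called lower more often than higher. Of 35 tested, 20 were called lower and 2 higher, against 22.6% and 24.9% of all genes tested, and the median was -0.21. The receptor subunit Ifnar1 was read at 2054, 2109, 1851 and 2168 in knockdown and 2050, 2024, 2304 and 2113 in control libraries, so the arms overlapped, and it was not called (log2 difference -0.05 ± 0.06, SE, adjusted p = 0.508). Stat2, a transcription factor of the response, had 1070, 940, 1603 and 1513 normalised reads against 3795, 3209, 4038 and 3477 and fell by 1.47. Irf7, the factor that amplifies type I interferon genes, had 356, 378, 671 and 623 against 1759, 1261, 1910 and 1418 and fell by 1.60. Irf9 fell by 1.08. The RNA sensors Ddx58, which encodes RIG-I, and Dhx58, which encodes LGP2, fell by 1.31 and 1.60. The interferon gene Ifnb1 had at most 2 reads in a knockdown library and 9 in a control library and was not tested. The 2 members called higher, named as exceptions, were Ifngr1, a subunit of the interferon gamma receptor (0.77), and Mavs, the mitochondrial adaptor of RNA sensing (0.26).

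Antigen presentation and inflammatory genes were called lower more often than higher. Among all genes tested, 22.6% were called lower and 24.9% higher. Of 22 genes of class I presentation tested, 17 were called lower and 2 higher (median -0.39). H2-Q4, a non-classical class I heavy chain, had 410, 342, 385 and 334 normalised reads against 1099, 714, 1235 and 1091 and fell by 1.38. The classical heavy chain H2-K1 fell by 0.60, the shared light chain B2m by 0.63, the peptide transporter Tap1 by 0.95 and the immunoproteasome subunit Psmb8 by 0.75. Control replicate 2 was again the lowest control for H2-K1, at 3967 normalised reads against 5614 to 6108 in the other controls and 3188 to 3601 in knockdown libraries. Class I heavy chain genes are similar in sequence, and reads may be split between them. Of 27 chemokines and inflammatory mediators, 17 were called lower and 2 higher (median -0.43). Cxcl5, a neutrophil attractant, had 779, 816, 600 and 519 against 2422, 2262, 2139 and 2745 and fell by 1.75. Ccl2, which attracts monocytes, fell by 1.48, the macrophage growth factor Csf1 by 1.16 and the adhesion molecule Vcam1 by 1.16. Leukocyte markers summed to 371 to 528 normalised reads in knockdown and 528 to 572 in control libraries, with 4 of the 9 in the table at 3 reads or fewer in every library, and their part in these results was not tested. The 5 leukocyte markers tested did not share a direction. Cd68 was called higher (0.87, means of 101 normalised reads in knockdown and 44.9 in control), Cd14 (-0.40, 317 against 427) and Lyz2 (-0.75, 7.67 against 27.9) were called lower, and Csf1r (0.13) and Mrc1 (-0.34), named after their values were seen, were not called.

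**Figure D3:**
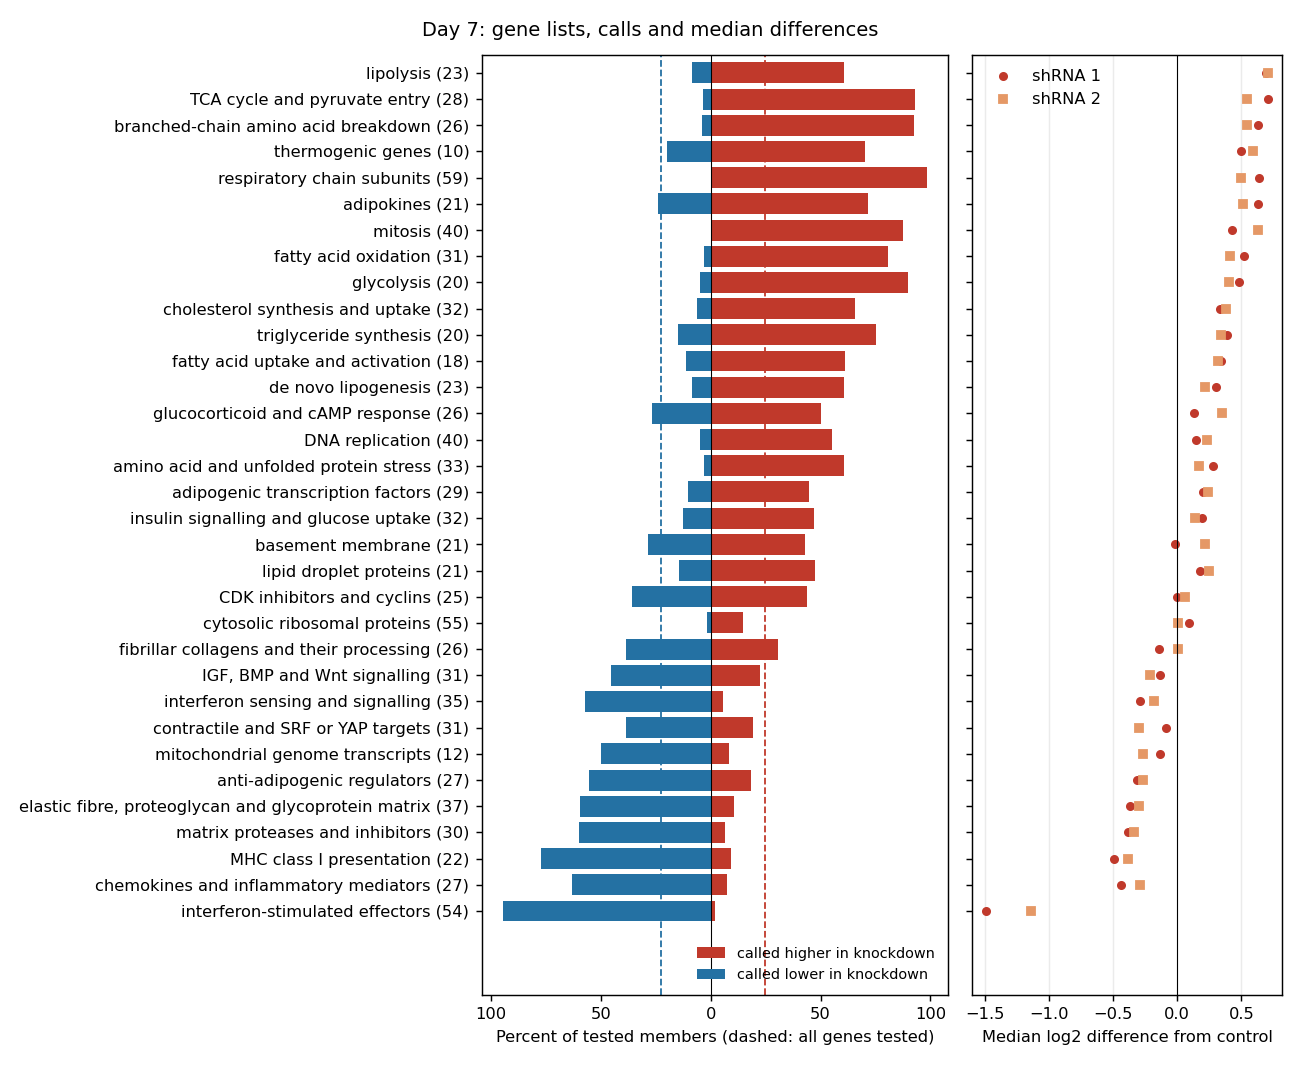
For each of 33 gene lists (number of members tested at day 7 in brackets), the left panel gives the percent of members called higher (red, to the right) and lower (blue, to the left), with dashed lines at 24.9% and 22.6% for all genes tested, and the right panel gives the median log2 difference from control for each shRNA. Respiratory chain, citric acid cycle and branched-chain amino acid lists are almost wholly called higher, and interferon-stimulated effectors almost wholly lower.

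Of 29 adipogenic transcription factors tested, 13 were called higher and 3 lower, with a median of 0.18, against 24.9% and 22.6% of all genes tested. Cebpa, which encodes C/EBPα (chromosome 7, 35119293 to 35121928, plus strand), had 7592, 6991, 5543 and 6745 normalised reads in knockdown and 1551, 1504, 1651 and 1688 in control libraries and rose by 1.99 ± 0.08 (SE, adjusted p = 2.97e-10). Pparg, the nuclear receptor required for fat cell formation (chromosome 6, 115360951 to 115490399, plus strand), had 8778, 8919, 8863 and 9480 against 3960, 3751, 3985 and 3851 and rose by 1.17 ± 0.05 (SE, adjusted p = 8.48e-11). The arms were clearly apart for both genes, and the Pparg levels of the 2 shRNAs were close to each other. Klf15, a Krüppel-like factor induced late in adipogenesis, rose by 2.05, Egr2, also called Krox20, by 1.93, and the coactivator Ppargc1b by 1.65. Cebpb and Cebpd, which precede them, did not pass the test with all libraries. Cebpb had 11803, 11269, 10960 and 12533 against 6843, 9392, 11493 and 10519, with overlap (log2 difference 0.30 ± 0.14, SE, adjusted p = 0.116), and without control replicate 3 it was called higher (0.39, adjusted p = 0.0282), as it was with all libraries by voom on rebuilt reads (0.31, adjusted p = 0.0451). The difference of Cebpd was -0.04 ± 0.07 (SE, adjusted p = 0.679).

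Genes that hold back adipogenesis fell more often than they rose. Of 27 anti-adipogenic regulators tested, 15 were called lower and 5 higher, with a median of -0.30, against 22.6% lower and 24.9% higher among all genes tested. Runx1t1 had 188, 144, 231 and 226 normalised reads in knockdown and 463, 472, 467 and 470 in control libraries, with the controls within a narrow band, and fell by 1.15. Pdgfra, the growth factor receptor that marks adipocyte progenitors, had 5343, 4984, 7330 and 6975 against 12547, 12741, 12667 and 12914 and fell by 1.03. The zinc finger gene Zfp521 fell by 0.90 and Sox9 by 0.83. Dlk1, the preadipocyte protein Pref-1, had 85309, 67311, 72350 and 67804 against 80460, 87079, 94117 and 84904. Its arms overlapped and its difference was small (-0.24 ± 0.07, SE, adjusted p = 0.0119). Of 11 fibroblast and preadipocyte markers tested, 9 were called lower and none higher, with a median of -0.46. Thy1 fell by 0.77 and Ly6a, the stem cell antigen Sca-1, by 0.76.

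Most genes of triglyceride synthesis were called higher. Of 20 triglyceride synthesis genes tested, 15 were called higher and 3 lower (median 0.35). Gpat3, which adds the first fatty acid to glycerol phosphate, had 2969, 2841, 1863 and 2318 normalised reads in knockdown and 606, 544, 634 and 573 in control libraries and rose by 1.97. Dgat2, which adds the last, had 15196, 13873, 8222 and 9358 against 2998, 2800, 2682 and 2862 and rose by 1.93. Gpd1, which makes glycerol phosphate, was higher with shRNA 2 than with shRNA 1, at 1806, 1980, 3790 and 4525 against 841, 725, 716 and 806, and rose by 1.78 over both. Lpin1, a phosphatidate phosphatase, rose by 1.58. Of 21 lipid droplet genes, 10 were called higher and 3 lower, with a median of 0.10, against 24.9% and 22.6% of all genes and a median of 0.01. Cidec, which fuses droplets, had 19195, 17739, 11231 and 14108 against 2762, 2493, 2310 and 2587 (log2 difference 2.51 ± 0.16, SE, adjusted p = 5.02e-06), and Plin1, the coat protein that gates lipolysis, had 8621, 8036, 5189 and 6387 against 1733, 1440, 1529 and 1592 (log2 difference 2.07 ± 0.15, SE, adjusted p = 6.06e-06). Plin2 and Plin3, coat proteins of many cell types named here for contrast, were called lower, with differences of -0.14 and -0.26.

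Genes of lipolysis, fatty acid uptake and lipogenesis were called higher more often than lower. Among all genes tested, 24.9% were called higher and 22.6% lower. Of 23 lipolysis genes and regulators, 14 were called higher and 2 lower, with a median of 0.74. Lipe, hormone-sensitive lipase, had 12512, 12140, 10462 and 13440 normalised reads in knockdown and 2805, 2673, 2852 and 2696 in control libraries, with no overlap (log2 difference 2.06 ± 0.06, SE, adjusted p = 6.94e-12). G0s2, an inhibitor of adipose triglyceride lipase, had 2386, 2150, 2013 and 2429 against 520, 409, 400 and 451 (log2 difference 2.21 ± 0.08, SE, adjusted p = 4.91e-11), and Hcar1, the lactate receptor, rose by 2.17. The lipase gene and the inhibitor gene both rose. Of 18 genes of fatty acid uptake and activation, 11 were called higher and 2 lower (median 0.29). Acsl1, which attaches coenzyme A to fatty acids, had 50695, 50414, 28750 and 36287 against 8483, 8135, 7813 and 8732 and rose by 2.22. Fabp4 and Fabp5, fatty acid carriers of the cytosol, rose by 1.66 and 1.85, and lipoprotein lipase, Lpl, by 1.59. Of 23 lipogenesis genes, 14 were called higher and 2 lower (median 0.26). Scd1, a fatty acid desaturase, rose by 1.92, more than fatty acid synthase, Fasn (0.92).

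Genes of fat cell hormones and of the insulin pathway were called higher more often than lower. Of 21 adipokine genes tested, 15 were called higher and 5 lower (median 0.54), the share called lower near the 22.6% of all genes. Adipoq, which encodes adiponectin, had 8746, 7936, 5319 and 5727 normalised reads in knockdown and 1825, 1606, 1530 and 1873 in control libraries, with shRNA 1 above shRNA 2 and both far above control (log2 difference 1.93 ± 0.16, SE, adjusted p = 3.06e-05). Cfd, the complement factor adipsin, had 6595, 6020, 6585 and 7334 against 1773, 1384, 1454 and 1539 and rose by 2.05, and resistin, Retn, rose by 1.55. Leptin, Lep, had at most 5 reads in any knockdown and 5 in any control library and was not tested. Of 32 genes of insulin signalling and glucose uptake, 15 were called higher, 4 lower and 13 not called (median 0.16). Besides Slc2a4, Trarg1, which helps GLUT4 return to its vesicle, rose by 1.65, and Sort1, the sortilin that sorts into it, by 1.37. Hexokinase 2, Hk2, rose by 0.91. The substrates Irs1 (-0.05) and Irs2 (0.16), named after their values were seen, were not called.

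Nuclear genes of the respiratory chain rose almost without exception. Of 59 respiratory chain subunits tested, 58 were called higher and none lower, against 24.9% and 22.6% of all genes tested. Their median was 0.57, in a narrow range of 0.17 to 1.53. The exception was Uqcr11 (0.17). Cycs, which encodes cytochrome c, had 5006, 5269, 3888 and 3938 normalised reads in knockdown and 1524, 1356, 1430 and 1680 in control libraries and rose by 1.53 ± 0.10 (SE, adjusted p = 1.81e-07). Uqcrfs1, the iron-sulphur subunit of complex III, had 6209, 5951, 5055 and 5506 against 2563, 2634, 2635 and 2588 and rose by 1.08, the complex III subunit Cyc1 by 0.80 and the ATP synthase subunit Atp5b by 0.82. The mean log2 value of the 59 genes was 11.85, 11.85, 11.69 and 11.73 in the knockdown libraries and 11.23, 11.15, 11.19 and 11.22 in the controls, so each library of one arm lay apart from the other. With libraries rescaled to equal totals, 57 of the 59 were still called higher.

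Transcripts of the mitochondrial genome were called lower more often than higher. Of 12 tested, 6 were called lower, 1 higher and 5 not called (median -0.26), against 22.6% lower and 24.9% higher among all genes tested. The median was -0.13 with shRNA 1 and -0.27 with shRNA 2. The mean log2 value of the list was 11.94, 12.19, 12.01 and 11.81 in knockdown and 12.04, 12.19, 12.15 and 12.19 in control libraries, so the arms overlapped. The cytochrome b gene mt-Cytb had 15138, 17182, 14569 and 12868 normalised reads in knockdown and 20020, 22981, 21400 and 22573 in control libraries, without overlap, and fell by 0.53. The complex I subunit gene mt-Nd1 fell by 0.43. The rise was of mt-Nd6, the one protein gene on the other strand, at 860, 990, 893 and 746 against 556, 578, 526 and 506 (log2 difference 0.64 ± 0.08, SE, adjusted p = 9.17e-06). The mitochondrial rRNA genes mt-Rnr1 (0.17) and mt-Rnr2 (0.03), named after their values were seen, were not called.

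Most genes of the pathways that feed the respiratory chain were called higher. Of 28 genes of pyruvate entry and the citric acid cycle, 26 were called higher and 1 lower (median 0.63). Among all genes tested, 24.9% were called higher and 22.6% lower. Idh3a, a subunit of isocitrate dehydrogenase, had 5519, 5530, 3881 and 4563 normalised reads in knockdown and 1622, 1747, 1614 and 1830 in control libraries and rose by 1.45 ± 0.10 (SE, adjusted p = 2.38e-07). Pyruvate carboxylase, Pcx, rose by 1.09, the pyruvate dehydrogenase subunit Pdhb by 1.06 and malate dehydrogenase, Mdh1, by 0.98. The fall was of Pdk4, a kinase that shuts off pyruvate dehydrogenase (-0.32), named as the exception. Of 26 genes of branched-chain amino acid breakdown, 24 were called higher and 1 lower (median 0.61). Dbt, the core of the branched-chain dehydrogenase, had 2298, 2029, 1857 and 1832 against 686, 659, 598 and 679 and rose by 1.52 ± 0.07 (SE, adjusted p = 5.01e-10). Bcat2, the mitochondrial aminotransferase, rose by 1.43 and Hibch, of valine breakdown, by 1.19. The fall was of Bcat1, the cytosolic aminotransferase (-0.49). Of 31 fatty acid oxidation genes, 25 were called higher and 1 lower (median 0.46). Acadm, a dehydrogenase of medium-chain fatty acids, rose by 1.14 and Crat, carnitine acetyltransferase, by 1.13. The fall was of Cpt1a, an isoform of the enzyme that admits fatty acids to mitochondria, with 852, 746, 563 and 667 normalised reads against 1382, 1457, 1504 and 1620 (log2 difference -1.03 ± 0.10, SE, adjusted p = 1.70e-06).

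Most glycolysis, sterol and stress genes were called higher. Of 20 glycolysis genes, 18 were called higher and 1 lower (median 0.45). Ldha, lactate dehydrogenase A, had 71334, 71246, 60267 and 61270 normalised reads against 37526, 34529, 39199 and 33141 and rose by 0.84, and Gapdh, often used as a reference gene, rose by 0.80. The fall was of the muscle enolase Eno3 (-0.72). Of 32 genes of cholesterol synthesis and uptake, 21 were called higher and 2 lower (median 0.36). Insig1, which retains SREBP in the endoplasmic reticulum, rose by 1.49 and Hmgcs1, an enzyme of sterol synthesis, by 0.88. Of 33 genes of amino acid and unfolded protein stress, 20 were called higher and 1 lower (median 0.21). The amino acid transporter Slc7a5 rose by 1.29, the oxidoreductase Ero1a by 1.23, Xbp1 by 1.16 and Atf4 by 0.33. Of 55 cytosolic ribosomal protein genes, 8 were called higher and 1 lower, with a median of 0.06, both shares below the 24.9% and 22.6% of all genes tested. With equal totals 6 were called higher and 4 lower.

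Of 10 thermogenic genes tested, 7 were called higher and 2 lower (median 0.58), the share called lower near the 22.6% of all genes. Kcnk3, a potassium channel of brown and beige fat, had 1824, 1740, 1213 and 1982 normalised reads in knockdown and 454, 437, 414 and 416 in control libraries and rose by 1.82. Adrb3, the adipocyte adrenergic receptor, had 96.4, 42.9, 25.2 and 36.0 against 7.87, 7.10, 6.80 and 10.4 and rose by 1.42. The brown fat markers Cidea, Dio2, Cox8b and Prdm16 were under the minimum, with at most 5, 3, 1 and 4 reads in any day 7 library, and were not tested.

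Genes of mitosis and of DNA replication were called higher more often than lower. Of 40 mitosis genes tested, 35 were called higher and none lower, with a median of 0.53. Plk1, a mitotic kinase, had 364, 350, 372 and 467 normalised reads in knockdown and 194, 194, 184 and 189 in control libraries and rose by 0.91 ± 0.09 (SE, adjusted p = 1.37e-06). The kinase Bub1 rose by 0.85, the centromeric histone Cenpa by 0.87, Hmmr by 0.87 and the proliferation marker Mki67 by 0.73. The mean log2 value of the list was 8.83, 8.79, 8.96 and 9.10 in knockdown and 8.38, 8.42, 8.22 and 8.53 in control libraries. Of 40 DNA replication genes, 22 were called higher and 2 lower, with a median of 0.21. Cdc6 and Cdc45, which load and activate the replicative helicase, rose by 0.85 and 0.77, while the helicase subunit Mcm2, at 2417, 2376, 2243 and 2532 against 2203, 2165, 2311 and 2493, was not called (0.06 ± 0.06, SE, adjusted p = 0.419). With equal totals, 17 replication genes were called higher and 4 lower. Of 25 cyclins and cyclin-dependent kinase inhibitors, 11 were called higher and 9 lower (median 0.08), where 24.9% and 22.6% of all genes tested were. Ccnd1, the cyclin of early G1 that responds to growth factors, had 3372, 3355, 2674 and 2025 against 8505, 8216, 8502 and 9208 and fell by 1.57, while Ccne2, of the G1 to S transition, rose by 1.01. The inhibitor Cdkn2c rose by 1.02 and the retinoblastoma gene Rb1 by 1.02. Cdkn1a, which encodes p21, was called higher by a small amount (log2 difference 0.14 ± 0.05, SE, adjusted p = 0.0301), with overlapping arms. It lost the call in 5 of 8 fits that left out 1 library (control replicate 2 or 4, either shRNA 1 replicate or shRNA 2 replicate 1, adjusted p from 0.0555 to 0.106) and with equal totals.

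Matrix proteases, elastic fibre genes and proteoglycans were called lower more often than higher. Of 30 matrix proteases and their inhibitors, 18 were called lower and 2 higher (median -0.36). Besides Mmp9, the stromelysin Mmp3 fell by 1.56, and Timp2, an inhibitor of metalloproteinases, had 10533, 9581, 11850 and 10229 normalised reads against 27294, 27950, 28819 and 27739 and fell by 1.37. Of 37 elastic fibre, proteoglycan and glycoprotein genes, 22 were called lower and 4 higher (median -0.31). Ogn, the proteoglycan osteoglycin, had 140, 152, 200 and 147 against 533, 518, 523 and 478 and fell by 1.56, thrombospondin 1, Thbs1, fell by 1.21 and Abi3bp by 1.13. Fibronectin, Fn1, was not called (0.08 ± 0.11, SE). Of 26 fibrillar collagens and their processing enzymes, 10 were called lower and 8 higher (median -0.11), where 22.6% and 24.9% of all genes tested were, so the share called higher is near that of all genes. Col1a1 had 78110, 71860, 75794 and 78968 against 78525, 84185, 88475 and 83708 and lay just short of the threshold (-0.13 ± 0.05, SE). It was called lower without control replicate 1 (adjusted p = 0.0390), without shRNA 2 replicate 2 (adjusted p = 0.0371) and with equal totals (adjusted p = 0.00684). Col3a1 fell by 0.32, a call lost when all 32 libraries were fitted together (adjusted p = 0.0665), and Col15a1, a collagen found near basement membranes, rose by 1.11. Basement membrane genes, which fat cells surround themselves with, had 9 of 21 members called higher and 6 lower (median 0.11), the share called lower again near that of all genes. Lamb3, a laminin chain, had 656, 568, 252 and 341 against 71.8, 58.8, 80.6 and 53.1 and rose by 2.30, and Nid2, nidogen 2, rose by 0.87.

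Cytoskeletal and growth factor genes were called lower more often than higher. Of 31 contractile genes and targets of SRF or YAP, 12 were called lower and 6 higher (median -0.24), against 22.6% lower and 24.9% higher among all genes tested. The receptor kinase Axl had 6705, 6189, 6941 and 6749 normalised reads against 12580, 12273, 13137 and 12513 and fell by 0.90, calponin 2, Cnn2, fell by 0.94 and filamin A, Flna, by 0.73. Of 31 genes of IGF, BMP and Wnt signalling, 14 were called lower and 7 higher (median -0.15), and the share called higher is near the 24.9% of all genes. Sfrp2, a secreted Wnt modulator, had 596, 341, 297 and 264 against 996, 953, 969 and 927 and fell by 1.35, and the BMP antagonist Grem1 fell by 0.81. Igfbp4, which binds insulin-like growth factors, had 14478, 14024, 12640 and 14676 against 4826, 5026, 5735 and 4720 and rose by 1.42, while Igf1 itself rose by 0.23, a call lost when all 32 libraries were fitted together (adjusted p = 0.152). Of 26 genes of glucocorticoid and cAMP response, 13 were called higher and 7 lower (median 0.25), the share called lower near the 22.6% of all genes. Hsd11b1, which regenerates active glucocorticoid, had 1228, 1252, 1219 and 1366 against 319, 280, 267 and 252 and rose by 2.04 ± 0.08 (SE, adjusted p = 4.91e-11).

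Of 8 epithelial markers in the table, 4 reached the minimum, of which Krt8, Krt18 and Krt19 were called higher and Krt7 (-0.25) was not called. Krt8 and Krt18 reached it through the knockdown libraries, with 1 and 2 control libraries above it, so their count says little by itself. Krt18, the partner of Krt8 in intermediate filaments, had 91.3, 121, 67.1 and 72.1 normalised reads against 11.8, 17.2, 4.86 and 2.31 and rose by 1.81. Krt19 had 279, 240, 140 and 163 against 54.1, 16.2, 15.5 and 19.6 and rose by 2.19. The summed epithelial markers were 266 to 1011 normalised reads in knockdown and 41.6 to 119 in control libraries, with Epcam, Cdh1 and Ocln at 2 reads or fewer in every day 7 library. Of 3 bone or cartilage markers tested, Alpl rose, while Runx2 (-0.13) and Spp1 (-0.44) were not called. Des, which encodes desmin and was the 1 muscle marker tested of 7 in the table, had 544, 586, 666 and 591 normalised reads against 388, 309, 356 and 292, with no overlap, and rose by 0.75.

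**Figure D4:**
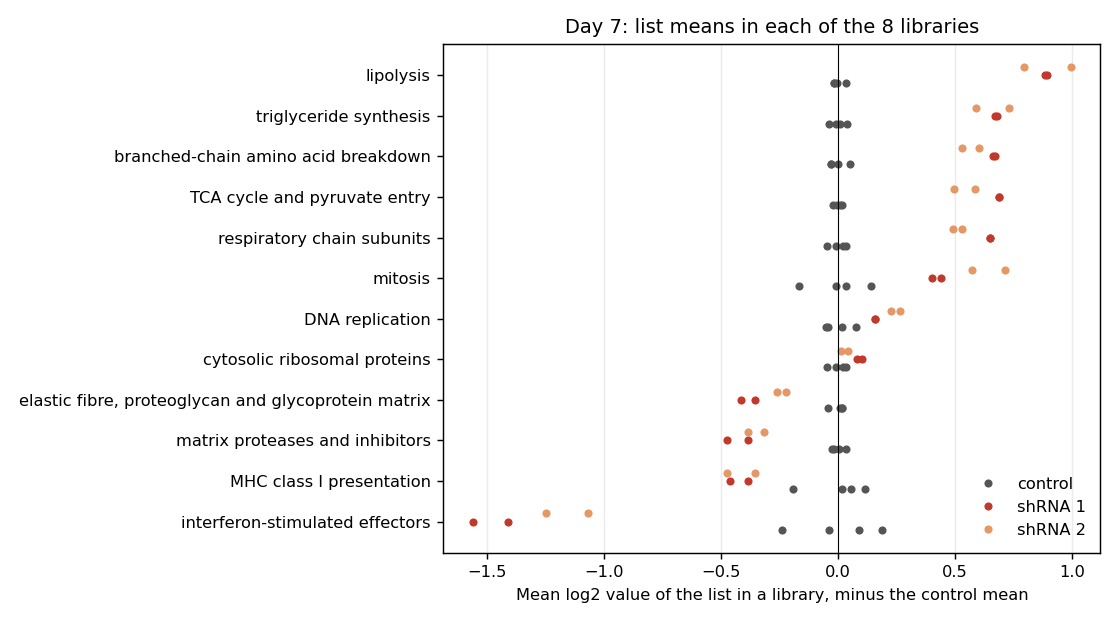
Each point is the mean log2 value of a gene list in 1 of the 8 day 7 libraries, as the difference from the mean of the 4 controls (grey: control, red: shRNA 1, orange: shRNA 2). Knockdown libraries lie apart from controls for all lists shown other than ribosomal proteins, and the shRNA 1 libraries lie lowest for interferon-stimulated effectors.

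The 2 shRNAs differed from each other in 2183 of 13299 genes (16.4%), 1000 higher (7.52%) and 1183 lower (8.90%) with shRNA 2. These counts rest on 2 libraries a shRNA, and the total was 1383 without shRNA 1 replicate 1, 1003 without shRNA 1 replicate 2 and 1325 without shRNA 2 replicate 1. The largest differences were of Krt8, lower with shRNA 2 by -2.70 (adjusted p = 0.000978), and B3gnt6, by -2.40 (adjusted p = 2.42e-07). Cytip and Nrxn2 were lower with shRNA 2 by -1.34 and -1.31. Nrxn2, a synaptic adhesion gene, had 228, 287, 77.6 and 87.7 normalised reads in knockdown and 77.7, 72.0, 84.5 and 120 in control libraries, so that shRNA 2 lay among the controls and the 4 against 4 comparison made no call. In the other direction, Pi15 (1.87), Cited1 (1.69), Aatk (1.45) and the acute phase gene Saa3 (1.45) were higher with shRNA 2, Pi15 losing the call without shRNA 1 replicate 1 (adjusted p = 0.0544) or 2 (adjusted p = 0.0907). Cited1, a transcriptional coactivator, had 89.3, 68.4, 353 and 330 against 25.6, 33.5, 39.8 and 17.3, above control with both shRNAs. Saa3 had 570, 768, 2069 and 1748 against 1718, 1642, 2094 and 2283, so that shRNA 1 lay below control and shRNA 2 among the controls.

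With all libraries, the effectors of the interferon response called between the shRNAs were higher with shRNA 2. Of the 54, 23 were higher with shRNA 2 and none lower, and the median difference from control was -1.49 with shRNA 1 and -1.14 with shRNA 2. Respiratory chain genes were lower with shRNA 2 in 19 of 59 and higher in none, with medians of 0.64 and 0.50 above control. Mitosis genes were higher with shRNA 2 in 6 of 40 and lower in none, where 7.52% and 8.90% of all genes were, with medians of 0.43 and 0.63. The mitosis count rose to 12 without control replicate 3. Without shRNA 1 replicate 2 or shRNA 2 replicate 2, limma called 0 of the 40, with 7 and 5 at an unadjusted p under 0.05. The effector count was 10 without shRNA 1 replicate 2 and 11 without shRNA 2 replicate 1, and 1 effector was lower without control replicate 2 or 3. The respiratory chain count was 10 without shRNA 1 replicate 1, 11 without shRNA 1 replicate 2 and 9 without shRNA 2 replicate 1. With libraries rescaled to equal totals, 61.9% of the calls between the shRNAs were higher with shRNA 2, against 45.8% with the deposited scaling, so the balance between the directions depends on scaling.

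The day 7 effect was then set against the effects at the neighbouring times. The knockdown effect differed between days 7 and 3 in 3137 of 13571 genes (23.1%), with 1754 effects higher (12.9%) and 1383 lower (10.2%) at day 7. It differed between days 7 and 11 in 1725 genes (12.7%), with 1039 higher (7.66%) and 686 lower (5.05%). Of genes called on both days with a called difference, 193 of 708 had opposite directions at days 7 and 3, and 86 of 549 at days 7 and 11. With equal totals, 45.3% of the differences from day 3 were higher, against 55.9% with the deposited scaling.

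**Figure D5:**
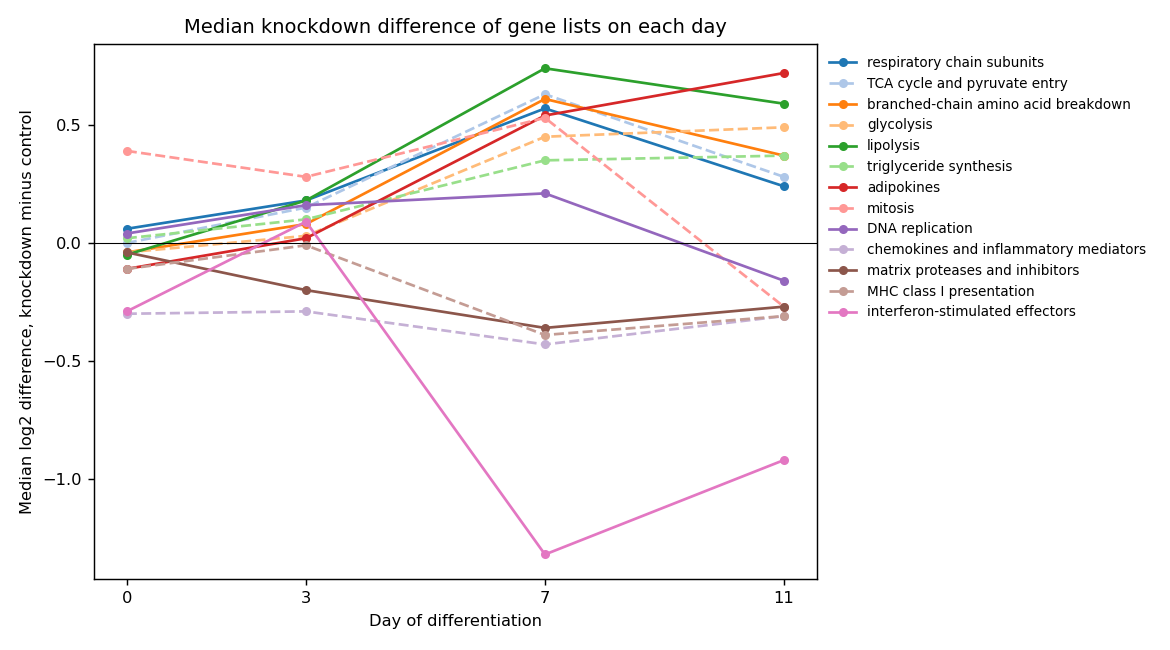
Median log2 difference between knockdown and control of 13 gene lists on days 0, 3, 7 and 11, each from the 8 libraries of that day. Interferon-stimulated effectors lie at 0.09 on day 3 and -1.32 on day 7, respiratory chain genes are highest on day 7 (0.57), and mitosis genes pass from 0.53 on day 7 to -0.27 on day 11.

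The fall of interferon-stimulated effectors set day 7 apart from day 3. The effect was lower at day 7 in 45 of 54 effectors and higher in none (median of the difference -1.39). At day 3, where 26.7% of all genes tested were called (14.6% higher and 12.1% lower), 5 of 53 were called higher and 4 lower, with a median of 0.09. The control level itself changed between the days: in control libraries, the mean log2 value of the list on days 0, 3, 7 and 11 was 9.98 ± 0.18, 7.30 ± 0.02, 10.03 ± 0.18 and 10.44 ± 0.07 (SD, n = 4). In knockdown libraries it was 9.65 ± 0.37, 7.42 ± 0.26, 8.71 ± 0.21 and 9.53 ± 0.78 (SD, n = 4), and at day 11 it ranged from 8.85 to 10.33. Knockdown libraries at day 7 were thus above their day 3 level and below the controls. The 4 named genes whose effect was lowest at day 7 against day 3 were all of this class: Ifit1 by -3.66 (adjusted p = 0.000316), Ifit3 by -3.55 (adjusted p = 0.00156), Ifit3b by -3.23 and Oasl2 by -3.01. Between days 7 and 11, 1 of the 54 effects differed, against 12.7% of all genes, and the median of the difference was -0.36. At day 11, 16 of 54 were called lower and 1 higher (median -0.92), against 16.2% and 16.8% of all genes tested. The wide spread of the day 11 knockdown libraries limits both counts.

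Respiratory chain genes had a wider gap at day 7 than at the neighbouring times. Respiratory chain effects were higher at day 7 than at day 3 in 53 of 59 genes and higher than at day 11 in 48 of 59, and none was lower. The corresponding counts were 22 and 20 of 28 for the citric acid cycle list, and 20 and 11 of 26 for branched-chain amino acid breakdown, of which 1 was lower at day 7 than at day 3. In control libraries the respiratory chain mean on days 3, 7 and 11 was 11.18 ± 0.05, 11.20 ± 0.03 and 11.02 ± 0.05, and in knockdown libraries 11.37 ± 0.08, 11.78 ± 0.08 and 11.25 ± 0.03 (SD, n = 4). Glycolysis effects were higher at day 7 than at day 3 in 14 of 20 genes, and against day 11 none was higher and 5 were lower. Lipolysis effects were higher than at day 3 in 16 of 23 and lower in 2, and against day 11 they were higher in 2 and lower in 2, near the 7.66% and 5.05% of all genes in that comparison.

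For mitosis genes, the effect was higher at day 7 than at day 11 in 22 of 40 and lower in none (median difference 0.86). Against day 3, limma called 0 of the 40 effects different, with 1 at an unadjusted p under 0.05. The mean log2 value of the list was 8.39 ± 0.13 in control and 8.92 ± 0.14 in knockdown libraries at day 7, and 7.01 ± 0.07 and 6.69 ± 0.38 at day 11 (SD, n = 4). For Mki67 the knockdown difference on days 3, 7 and 11 was 0.42, 0.73 and -0.26, and the difference between its effects at days 7 and 3 was not called (adjusted p = 0.537).

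Single genes with the largest change of effect between days were of several kinds. Against day 3, the largest increases were of Krt8 (3.37), B3gnt6 (3.30), Ghrh (3.16) and Pdzk1 (2.94). Krt8 and B3gnt6 did not reach the minimum in 4 libraries on any other day and were tested because of their day 7 knockdown level, so their place in this order, and that of B3gnt6 against day 11, was largely built in. Ghrh had a difference of 0.01 on day 3, 3.17 on day 7 and 3.76 on day 11, and the difference between its effects at days 7 and 11 was not called (adjusted p = 0.0714). Against day 11, B3gnt6 (2.80), the keratins Krt15 (2.29) and Krt19 (1.63) and the GTPase gene Rnd2 (1.51) had higher effects at day 7. Krt15 lost its call without control replicate 2 or 3 or either shRNA 1 replicate (adjusted p from 0.0514 to 0.0703). Rnd2 had 1746, 1778, 1384 and 1805 normalised reads in knockdown and 664, 609, 616 and 650 in control libraries at day 7 (log2 difference 1.31 ± 0.08, SE, adjusted p = 3.40e-09), against a log2 difference of -0.20 at day 11. The genes with lower effects at day 7 than at day 11 were Kctd11 (-1.87), Depp1 (-1.87), the lipid droplet protein gene Hilpda (-1.69) and the aldehyde dehydrogenase gene Aldh1a7 (-1.62). Kctd11 had 1288, 1258, 1192 and 1055 against 1108, 1147, 1409 and 1096 at day 7 and was not called, while at day 11, where 33.0% of genes were called (16.8% higher and 16.2% lower), its difference was 1.88 (adjusted p = 6.13e-05). Hilpda was called higher on both days, by 0.49 at day 7 and 2.18 at day 11.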

How the data were processed

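RNA of 3T3-L1 cells was sequenced after Illumina TruSeq preparation, per the labels' protocols. The submitters' processing notes name TopHat2 2.1.0, Bowtie2 2.2.6, SAMtools 1.3.1 and HTSeq 0.6.1. Genome build, annotation, strand setting and the transform are not given in the sources used here. The authors deposited 1 table of log2 values for 20560 genes in 32 libraries, which has the form of a regularized log. Inverting that form gave reads within 0.1 of a whole number for 99.2% of values, and for the rest the reads are approximate.

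Knockdown and control were compared with limma 3.58.1 in R 4.3.3 (trend and robust empirical Bayes) on the deposited values, with no pseudocount, for genes whose 2 to the power of the value reached 10 in 4 libraries. Genes were called at a Benjamini-Hochberg adjusted p under 0.05. Days were compared by an interaction term. On simulated reads with 200 of 13299 genes changed, the fit recovered small changes less often than large ones. It recovered 66.7% of log2 changes of 0.5 and 95.5% of those of 1. The share of false calls was 8.85%, above the nominal threshold. The simulation had far fewer changed genes than were called here, no difference between shRNAs and not the deposited transform. It therefore does not measure the share of false calls in these data. The labels call replicates biological, do not tie them to separate cultures, and give no batch. In the 4 against 4 fit, both shRNAs formed 1 knockdown group, and its 4 libraries were treated as separate replicates. They are 2 libraries for each of 2 shRNAs, and those of 1 shRNA lay closer together than those of different shRNAs. The p-values measure the spread between these samples, in which shRNA and replicate are mixed. Same-numbered replicates did not deviate together, with correlations of -0.00 to 0.05.

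Named genes were Zbtb9, the 12 largest rises and 12 largest falls with separated groups, the 4 largest such members of each list with a fixed set of known genes, and the 4 largest in each direction between shRNAs and between days, leaving out predicted genes. Others are named as exceptions or after their values were seen. Members and lists were chosen with earlier results of these data known. Promoter sequences are from RefSeq (GRCm38.p6).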

Additional observations from a re-analysis of the deposited data

Results flagged for a closer look

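In 9 of 310 groups of 4 libraries examined for the genes named, 1 library stood apart from the other 3 by Dixon's ratio of its gap to the group's range. Chance sets about 1 group in 20 apart. Among controls, replicate 2 was low for B2m (ratio 0.86, log2 value 14.60 against 15.02 to 15.09) and Cdc45 (0.89), replicate 3 was low for Cdkn2c (0.94) and Zfp521 (0.84), replicate 4 was low for B3gnt6 (0.94), and replicate 1 was high for Krt19 (0.85, log2 value 5.06 against 3.96 to 4.13). Among knockdown libraries, shRNA 2 replicate 2 was low for Atf4 (0.89) and Cdkn1a (0.91), and shRNA 2 replicate 1 was low for Rnd2 (0.88).

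The knockdown effect differed between days by a test of the difference itself. Between days 7 and 3 it differed in 3137 genes. Effects were lower at day 7 for Ifit1 (-3.66), Ifit3 (-3.55), Ifit3b (-3.23) and Oasl2 (-3.01), and higher for Krt8 (3.37), B3gnt6 (3.30), Ghrh (3.16) and Pdzk1 (2.94). Krt8 and B3gnt6 were tested because of their day 7 knockdown level, and their differences between days, B3gnt6 against day 11 included, were largely built in. Between days 7 and 11 it differed in 1725 genes. Effects were lower at day 7 for Kctd11 (-1.87), Depp1 (-1.87), Hilpda (-1.69) and Aldh1a7 (-1.62), and higher for B3gnt6 (2.80), Krt15 (2.29), Krt19 (1.63) and Rnd2 (1.51).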

How the results depend on the processing

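No named gene reversed under the alternatives run. With equal totals the balance of higher and lower calls turned over in the comparisons where the results say so and for shRNA 2 against control (48.0% higher, against 52.2%), but not for day 7 against day 11 (54.5% against 60.2%). With same-numbered replicates as a replicate block, 4112 genes were called in knockdown against control and 1847 of them were lower. The labels do not say whether the numbers pair samples. Krt8 (adjusted p = 0.111), B3gnt6 (adjusted p = 0.0586), Pi15 (adjusted p = 0.114) and Zbtb9 (adjusted p = 0.119) were among the 12 named genes not called in that fit. Cebpb was called in it (0.52, adjusted p = 0.00361). Leaving out 1 library gave 5658 to 6291 calls for knockdown against control (2992 to 3331 higher and 2653 to 2960 lower), 5198 to 6919 for shRNA 1, 4591 to 6036 for shRNA 2, 2736 to 3211 for day 7 against day 3 and 1357 to 1836 for day 7 against day 11. Between the shRNAs the range was 1003 to 2385 (448 to 1095 higher and 555 to 1290 lower with shRNA 2). Where an arm was left with 1 library, that library was assumed to vary like the others. The Zbtb9 difference ranged from -0.391 to -0.291. Depth limits genes with few reads, such as Zbtb9, Lep and Ifnb1.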
